A study of Mus musculus with 9 samples.

Results

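Collagens are abundant structural proteins of the extracellular matrix. Described here are the collagen genes other than Col4a1 and Col4a2, taken as every probe set whose single gene symbol has the form of a collagen alpha chain, with the probe set of highest mean signal kept for each gene. This gave 42 genes of 19933 with a probe set of their own. By the structure their products form they were put into 11 fibrillar collagens, 7 collagens of the basement membrane and 24 others. Among the 42, 38 passed the filter on dim signals and were tested, which covers all 11 fibrillar and all 7 basement membrane genes and 20 of the others. Col10a1, Col12a1, Col19a1 and Col28a1 stayed below it.

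A collagen chain carries long stretches in which glycine alternates with a pair of other residues, and chains wind into a triple helix in the endoplasmic reticulum before secretion. Fibrillar collagens assemble outside the cell into the cables that give tissue tensile strength. Basement membrane collagens form sheets or anchor them, and the remaining families decorate fibrils, build beaded filaments or networks, or span the cell membrane. In the yolk sac, endoderm and mesoderm face each other across a basement membrane, and blood vessels form in the mesodermal layer.

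Signals came from an Affymetrix whole-transcript gene array and are log2 values per probe set. RNA was taken from mouse yolk sacs at embryonic day 9.5, on a mixed SV 129/C57BL/6 background, with 3 arrays each of wild type (WT, Rnh1+/+), heterozygous (HET, Rnh1+/-) and knockout (KO, Rnh1-/-) samples. No sample was treated. Rnh1 encodes the ribonuclease inhibitor, and each genotype was compared with the others to ask what its loss changes in the yolk sac. Per the labels the yolk sacs were dissected free of maternal tissue. The sources used here do not say which part of the gene was deleted or how many yolk sacs went into a sample. They do not name separate animals either, so the p-values cover only sample-to-sample spread, which may be technical, and the number of arrays limits the precision.

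Rnh1 had a mean of 10.38 ± 0.05 on WT arrays, 9.75 ± 0.01 on HET arrays and 6.64 ± 0.32 on KO arrays (log2, ± SD, n = 3), in the order of the labels. KO differed from WT by -3.73 (limma adjusted p = 4.61e-06), and the HET difference of -0.62 did not pass (0.939; 0.0221 without KO 1). Defining transcripts of the visceral endoderm, such as Afp and Ttr, were all above the dim filter, with a mean of the 12 listed genes from 12.18 to 12.60 over the arrays. Xist, the transcript of the inactive X chromosome, was low on WT 1, HET 1 and HET 3 (5.15 to 5.76) and high on the other arrays (10.56 to 11.67), every KO array among them. The Y-linked Eif2s3y was low on WT 3 and KO 3 (4.34 and 4.41) and read 7.27 to 8.81 elsewhere, so 4 arrays (WT 2, HET 2, KO 1 and KO 2) were high for both. The part of this in the results was not tested.

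KO against WT asked what the loss of both Rnh1 copies changed among the collagens. Col14a1 fell by nearly 1 log2 unit, and no other tested collagen passed the test in either direction. Col14a1 encodes collagen XIV, which sits on the surface of fibrils and belongs to the fibril-associated collagens. Of 38 tested genes 1 fell, 0 rose and 37 did not pass, by limma with Benjamini-Hochberg adjustment over all 13207 genes tested. Over all genes 23.5% passed, 8.27% higher and 15.2% lower. The median size of the difference was 0.11 (log2) among tested collagens and 0.16 among all genes tested. A missed threshold does not show that signals were alike, so the intervals matter more. For 35 of the 38 collagens (92.1%) the 95% interval of the difference lay within a 1.5-fold change either way, against 81.3% of all genes tested. Col14a1, Col6a6 and Col9a3 were the exceptions among the collagens.

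**Figure D1:**
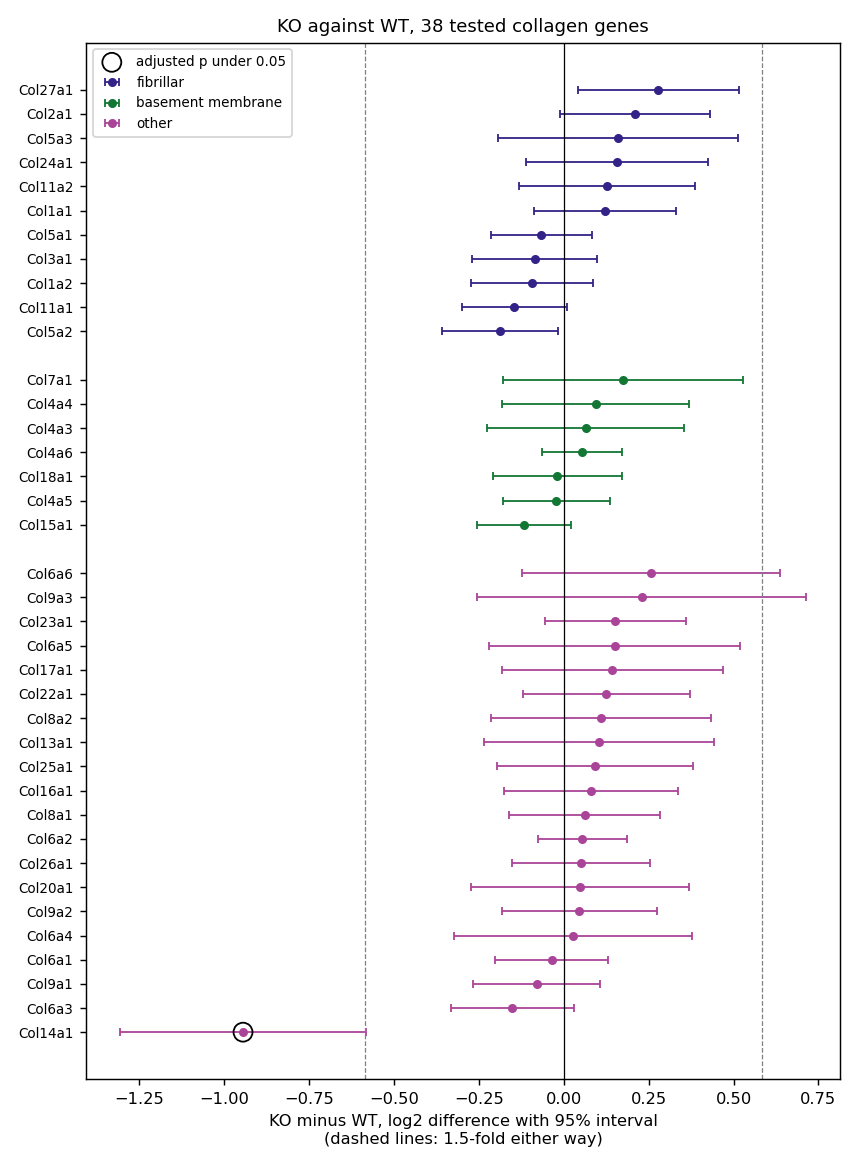
KO minus WT difference (log2, horizontal axis) with its 95% interval from limma for the 38 tested collagen genes, ordered by size within each class; dashed lines mark a 1.5-fold change. Col14a1, circled, lies at -0.94 and is the only gene past an adjusted p of 0.05, while the other points lie between -0.19 and 0.28.

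Col14a1 (Entrez gene 12818, probe set 10424140) stood at 8.50, 8.73 and 8.34 on the WT arrays. On HET arrays it read 8.52, 8.68 and 8.34, and on KO arrays 7.90, 7.30 and 7.53. All KO values lay below all WT and HET values, and WT and HET overlapped throughout. From 8.52 ± 0.20 in WT to 7.58 ± 0.30 in KO (mean ± SD, n = 3), the difference was -0.94 ± 0.16 (log2, SE), a 1.92-fold lower signal (log2 95% interval -1.31 to -0.58, limma adjusted p = 0.00455). Among all genes tested its unadjusted p ranked 634. The call held under each of 22 alternatives, with differences from -1.11 to -0.81 and adjusted p from 1.27e-04 to 0.02. KO 1 was the highest KO array, and without it the difference was -1.11.

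**Figure D2:**
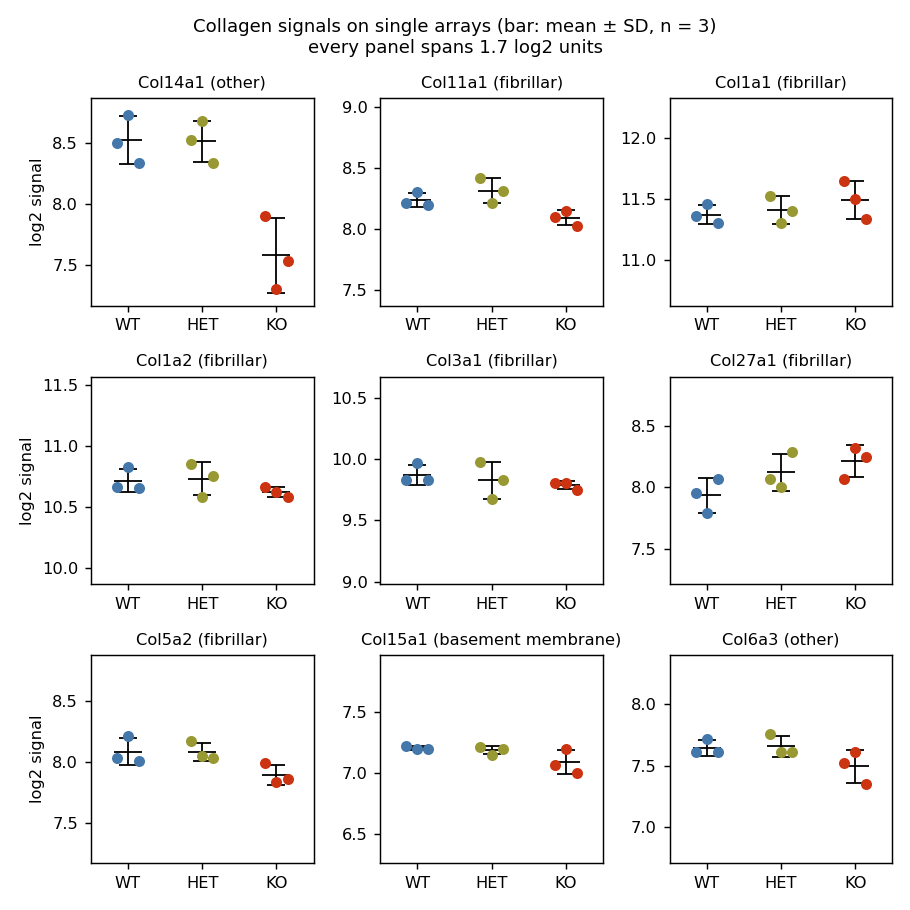
Log2 signal of 9 collagen genes on each array (points, replicates 1 to 3 from left to right) with the mean and SD of 3 arrays per genotype (bars); each panel spans the same range on the vertical axis. Col14a1 is lower on all KO arrays, whereas KO values of Col1a1, Col1a2, Col27a1, Col15a1 and Col6a3 overlap with WT.

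The whole yolk sac was measured, and fewer cells of a type cannot be told apart from less RNA per cell. On the same arrays the mean of 10 extraembryonic mesoderm genes ran from 10.22 to 10.35 over WT arrays, from 10.21 to 10.34 over HET arrays and from 10.37 to 10.42 over KO arrays, with 3 genes higher, 1 lower and 6 not past the test for KO against WT. The mean of the 12 visceral endoderm genes ran from 12.47 to 12.57 in WT against 12.18 to 12.35 in KO, with 3 genes lower. A list of 9 endothelial genes lay at 9.57 to 9.66 in WT against 9.54 to 9.56 in KO, with 1 higher and 2 lower. For 7 genes of primitive red cells the range was 11.16 to 11.35 against 10.77 to 11.25, with 2 lower. The share called was 40% for mesoderm, 25% for endoderm, 33.3% for endothelium and 28.6% for red cells, against 23.5% of all genes. For 13 trophoblast genes, 7 of them below the dim filter (among them Tpbpa, Ctsq and Psg17), the mean ran from 6.35 to 6.57 in WT against 6.52 to 7.37 in KO. For 10 genes of the maternal decidua, of which Pgr, Esr1, Hoxa11 and Prl3c1 were dim, it ran from 7.31 to 7.73 in WT against 7.62 to 7.87 in KO. Genes of the embryo proper, 7 of 14 dim, lay at 6.27 to 6.54 in WT against 6.51 to 6.84 in KO. Of the tested genes 1 of 6 rose for trophoblast (16.7%), 1 of 6 rose for decidua (16.7%) and 0 of 7 passed for the embryo proper. The part of these shifts in the Col14a1 result was not tested.

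None of the 11 fibrillar collagens passed in KO against WT (23.5% of all genes did), with 6 above and 5 below 0. Collagen I, the main fibril of mesenchyme, is built from the products of Col1a1 and Col1a2. Col1a1 read 11.36, 11.46 and 11.30 on WT arrays, 11.53, 11.30 and 11.40 on HET arrays and 11.65, 11.50 and 11.34 on KO arrays. Its KO range held all of the WT values except WT 3, and the difference was 0.12 ± 0.09 (log2, SE, limma adjusted p = 0.359). Its partner chain Col1a2 read 10.67, 10.83 and 10.66 on WT arrays, 10.85, 10.59 and 10.75 on HET arrays and 10.66, 10.63 and 10.58 on KO arrays. KO 1 thus sat at the lower edge of the WT range and KO 2 and KO 3 below it. The difference was -0.09 ± 0.08 (limma adjusted p = 0.415). The intervals of these differences were -0.09 to 0.33 for Col1a1 and -0.27 to 0.09 for Col1a2.

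Col3a1, which encodes the chain of collagen III in distensible tissue such as vessel walls, stood at 9.83, 9.97 and 9.83 in WT. HET values were 9.98, 9.68 and 9.83, and KO values 9.80, 9.81 and 9.75. Although all KO arrays lay below all WT arrays, the gap was under 0.1 and the difference of -0.09 ± 0.08 (SE) did not pass (limma adjusted p = 0.461). Without overlap between KO and WT were 4 collagens in all, Col14a1, Col11a1, Col3a1 and Col5a2, each lower in KO. Among all genes tested 40.5% had no overlap (24.7% lower, 15.8% higher).

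The smallest unadjusted p-values among fibrillar genes belonged to Col27a1 and Col5a2, which lay on opposite sides of 0. Col27a1, whose product is found in developing cartilage, read 7.95, 7.79 and 8.07 on WT arrays, 8.07, 8.00 and 8.29 on HET arrays and 8.07, 8.33 and 8.25 on KO arrays. WT 3 and KO 1 met at 8.07, and the difference was 0.28 ± 0.11 (log2, SE, limma adjusted p = 0.0851). Without KO 1 it was 0.35 and passed (adjusted p = 0.0443), as did Col6a6 (0.44, adjusted p = 0.0448), so that 3 collagens were called without that array.

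Col5a2, a chain of the collagen V that starts fibrils and limits their width, stood at 8.03, 8.21 and 8.01 on WT arrays, 8.17, 8.05 and 8.03 on HET arrays and 7.99, 7.84 and 7.86 on KO arrays. KO lay below both other genotypes without overlap. The difference from WT was -0.19 ± 0.08 (SE, limma adjusted p = 0.104), and it passed with quantile normalization (adjusted p = 0.0487) and with array weights (0.0349). Its partner Col5a1 stood at -0.07 and Col5a3 at 0.16. The cartilage chains Col2a1, Col11a1 and Col11a2 gave 0.21, -0.15 and 0.13, and Col24a1, under the array median on all 9 arrays, gave 0.16. None of these passed, although Col2a1 did with array weights.

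Promoter windows are shown for Col11a1, the fibrillar gene that passed in a comparison described later, and for Col1a2 and Col3a1, which did not pass in any. Each holds the 250 bases before the gene's start, 5′ to 3′, from RefSeq on GRCm38.p6. Col11a1 lies at chr3:114030290-114030539 (plus strand), Col1a2 at chr6:4505368-4505617 (plus strand) and Col3a1 at chr1:45311288-45311537 (plus strand). Capitals mark matches, on either strand, to CCAAT (the box bound by NF-Y), to GGGCGG (the GC box) or to TATAAA (the TATA box).
Col11a1: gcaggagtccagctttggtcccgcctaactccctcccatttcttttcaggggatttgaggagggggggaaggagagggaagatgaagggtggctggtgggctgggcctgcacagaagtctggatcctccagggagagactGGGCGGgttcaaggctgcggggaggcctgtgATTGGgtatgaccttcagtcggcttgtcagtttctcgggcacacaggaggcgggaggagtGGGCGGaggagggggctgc
Col1a2: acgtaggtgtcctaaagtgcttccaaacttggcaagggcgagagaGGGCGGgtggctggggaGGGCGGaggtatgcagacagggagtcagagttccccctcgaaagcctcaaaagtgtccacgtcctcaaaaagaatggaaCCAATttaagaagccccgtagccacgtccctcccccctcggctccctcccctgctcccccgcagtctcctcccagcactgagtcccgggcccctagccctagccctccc
Col3a1: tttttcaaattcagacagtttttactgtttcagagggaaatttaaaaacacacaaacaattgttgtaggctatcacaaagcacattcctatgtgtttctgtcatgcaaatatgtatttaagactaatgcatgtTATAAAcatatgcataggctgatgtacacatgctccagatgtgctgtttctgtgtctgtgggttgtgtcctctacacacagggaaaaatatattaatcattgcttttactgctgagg
Col11a1 and Col1a2 each held 1 CCAAT match, whose first base in the printed direction lay 79 and 109 bases before the start, and each held 2 GGGCGG matches. Col3a1 held neither, and 1 TATAAA match at 117 bases. Available were 36 windows for 33 of the 42 collagens, none of them for Col14a1. CCAAT was found in 30.6% of these and 33.8% of all 32851 windows of this length, GGGCGG in 58.3% against 32.7%, and TATAAA in 13.9% against 12.4%. By class GGGCGG was present in 6 of 8 fibrillar, 4 of 7 basement membrane and 11 of 21 other windows. A match describes the letters and is not a site shown to be used.

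The 7 basement membrane collagens lay between -0.12 and 0.17 in KO against WT. Their median size of difference was 0.06, against 0.15 for fibrillar and 0.10 for other collagens, and this was not tested. By limma 0 of the 7 passed in either direction, against 23.5% of all genes. An unadjusted p under 0.05 was held by 0 of the 7, against 5025 of all 13207 genes tested. Col15a1 encodes collagen XV, which links basement membranes to the tissue beneath them. It read 7.23, 7.20 and 7.20 on WT arrays, 7.22, 7.15 and 7.20 on HET arrays and 7.07, 7.20 and 7.01 on KO arrays. KO 1 and KO 3 lay below every WT array but KO 2 did not, and the difference was -0.12 ± 0.06 (log2, SE, limma adjusted p = 0.193). Col18a1, the related chain from which endostatin is cut, read 9.20, 9.18 and 9.18 on WT arrays, 9.27, 9.14 and 9.18 on HET arrays and 9.35, 9.02 and 9.12 on KO arrays. KO arrays fell on both sides of the tight WT values, with a difference of -0.02 (interval -0.21 to 0.17).

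The minor collagen IV chains of kidney and other specialised membranes did not pass either, with differences of 0.06 for Col4a3, 0.09 for Col4a4, -0.02 for Col4a5 and 0.05 for Col4a6. Col4a3, Col4a4 and Col4a6 were under the array median on all 9 arrays. Col4a5 and Col4a6 lie on the X chromosome. Col7a1, the anchoring fibril of skin, had the smallest unadjusted p of the class after Col15a1. It read 7.52, 7.10 and 7.55 on WT arrays, 7.53, 7.53 and 7.81 on HET arrays and 7.28, 7.71 and 7.71 on KO arrays. WT 2 and KO 1 were its lowest arrays, and the difference of 0.17 ± 0.16 (SE) did not pass (limma adjusted p = 0.436).

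For comparison, the major collagen IV chains Col4a1 and Col4a2, which are not counted here, read 10.55 and 10.26 on WT 1, 9.87 and 9.62 on WT 2, and 10.96 and 10.62 on WT 3. In HET and KO they lay between 9.72 and 9.88 and between 9.42 and 9.55. WT 1 and WT 3 stood apart. On those arrays the mean of 9 parietal endoderm genes was 10.64 and 11.04, against 9.47 to 9.74 on the other arrays. The part of this in the difference of Col4a2 (-0.71, adjusted p = 0.0343) or Col4a1 (-0.66, 0.0585) was not tested. None of the 38 tested collagens described here, 0 against 167 of all genes tested (1.26%), had both WT 1 and WT 3 above the other 7 arrays. With a share that low, 0 among 38 genes is not read as a difference.

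Of the 20 other collagens tested, 1 fell (Col14a1), 0 rose and 19 did not pass (5% called, against 23.5% of all genes). Collagen VI forms beaded microfilaments around cells. Its chains Col6a1, Col6a2 and Col6a3 stood at -0.04, 0.05 and -0.15, and the related chains Col6a4, Col6a5 and Col6a6 at 0.03, 0.15 and 0.26. Col6a3 had the smallest unadjusted p of the class after Col14a1, with 7.61, 7.72 and 7.61 on WT arrays, 7.76, 7.61 and 7.61 on HET arrays and 7.52, 7.61 and 7.35 on KO arrays. WT 1, WT 3, HET 3 and KO 2 held an identical value, while KO 1 and KO 3 lay below every WT array (-0.15 ± 0.08, SE, limma adjusted p = 0.196).

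Collagen IX coats the fibrils of cartilage, and its chains Col9a1, Col9a2 and Col9a3 stood at -0.08, 0.05 and 0.23. Col9a3 had the widest interval of the tested collagens (-0.25 to 0.71) and ranged over 1.01 across the 9 arrays. Of the other fibril-associated collagens, Col16a1, Col20a1 and Col22a1 lay at 0.08, 0.05 and 0.13. The network collagen VIII of vessel walls had Col8a1 at 0.06 and Col8a2 at 0.11. The collagens that span the cell membrane, Col13a1, Col17a1, Col23a1 and Col25a1, lay at 0.10, 0.14, 0.15 and 0.09, and Col26a1 at 0.05. Of the class, Col6a4, Col8a1, Col8a2, Col17a1 and Col25a1 were under the array median on all 9 arrays, and Col6a4 passed the dim filter on only 5. The 4 untested genes gave -0.09 for Col12a1, 0.07 for Col19a1, 0.08 for Col28a1 and 0.24 for Col10a1, which marks cartilage about to turn to bone. These were too dim for a test.

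The classes were then set side by side for KO against WT, with no test. The median difference was 0.12 for fibrillar, 0.05 for basement membrane and 0.07 for other collagens, and 0.06 for all 38 against -0.0046 for all genes tested. Over the arrays of a genotype the class medians varied with an SD of 0.07, 0.08 and 0.16 in that order. With arrays centred on their medians the all-gene median was -0.07, the collagen median was -0.0046 and the basement membrane median was -0.01, and 18 of 38 genes in place of 26 lay above 0. The basement membrane median was also below 0 with quantile normalization (-0.02) and cyclic loess (-0.01). Without WT 2, 16 genes lay above 0, and the medians were 0.020 (fibrillar), -0.0083 (basement membrane) and -0.017 (other). The median of all 38 was 0.158 without KO 1, 0.124 without WT 3 and 0.012 without KO 3. No direction is therefore read from these medians.

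HET against WT asked what the loss of a single Rnh1 copy changed. Among the 38 collagens 0 passed, as among all 13207 genes tested (0% of genes). Over all genes 6 were called with array weights and 5 without WT 2. Without WT 2 and KO 1 together 4 were called, and without KO 1 alone 1. Every one of these was lower in HET. By limma 0 of the 38 collagens had an unadjusted p under 0.05, against 327 of the 13207 genes. Differences ran from -0.05 for Col3a1 to 0.27 for Col9a3, with 34 genes above and 4 below 0 and a median of 0.12. The sign turned for 6 genes with centred arrays and for 4 with quantile normalization. The median rested on single arrays and was 0.052 without WT 2, 0.075 without HET 3 and 0.185 without WT 3. Col14a1 stood at -0.01 (interval -0.37 to 0.35). In 36 of 38 collagens (94.7%) the interval lay within a 1.5-fold change, against 95.7% of all genes. Groups without overlap were held by 0 collagens, against 10.2% of all genes (4.25% higher, 5.98% lower).

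KO against HET, which shares the KO arrays with the comparison above, gave 2 collagens lower, 0 higher and 36 not past the test, where 21.8% of all genes passed (8.17% higher, 13.6% lower). Col14a1 was -0.93 ± 0.16 (log2, SE, limma adjusted p = 0.00473). Col11a1, whose product joins collagen V at the core of fibrils, read 8.42, 8.22 and 8.31 in HET and 8.10, 8.15 and 8.03 in KO, with 8.22, 8.30 and 8.20 in WT. KO lay below both other genotypes without overlap, and the fall was -0.22 ± 0.07 (adjusted p = 0.047). That call was at the threshold. It was lost under 15 of 22 alternatives, among them the removal of any single array other than HET 2, with adjusted p up to 0.158 without HET 1. Col5a2 stood at -0.19 (adjusted p = 0.114) and passed with quantile normalization (-0.21, adjusted p = 0.032), with array weights (-0.24, 0.025) and without WT 2 and KO 1 together (-0.23, 0.0318). Without overlap between KO and HET were Col14a1, Col11a1 and Col5a2, against 37.1% of all genes (21.4% lower, 15.7% higher). Of the 38 differences 31 lay below and 7 above 0, but 24 lay above 0 without KO 1, 21 without HET 3 and 23 with array weights. The median of the 38 was -0.047, and it was 0.029 without KO 1, 0.017 without HET 3, -0.106 without HET 2 or KO 2 and -0.111 without KO 3, so no direction is read from it. By class the medians were -0.03 for fibrillar, -0.06 for basement membrane and -0.05 for other collagens, against -0.01 for all genes. The 95% interval lay within a 1.5-fold change for 37 of 38 collagens (97.4%), against 83.4% of all genes.

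Many collagens shared a pattern over the arrays within a genotype. Within WT, WT 2 alone was lowest for 27 of 38 tested collagens, against 26.3% of all genes tested. KO 1 alone was the lowest KO array for 24, against 36% of all genes, and HET 3 alone the highest HET array for 26, against 25.4%. All of these held at once for 22 collagens (57.9%, against 13.6% of all genes). Among the tested collagens that departed from it, Col14a1, Col11a1, Col1a1, Col1a2, Col3a1, Col5a1, Col5a2 and Col6a3 were highest on WT 2 within WT.

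**Figure D3:**
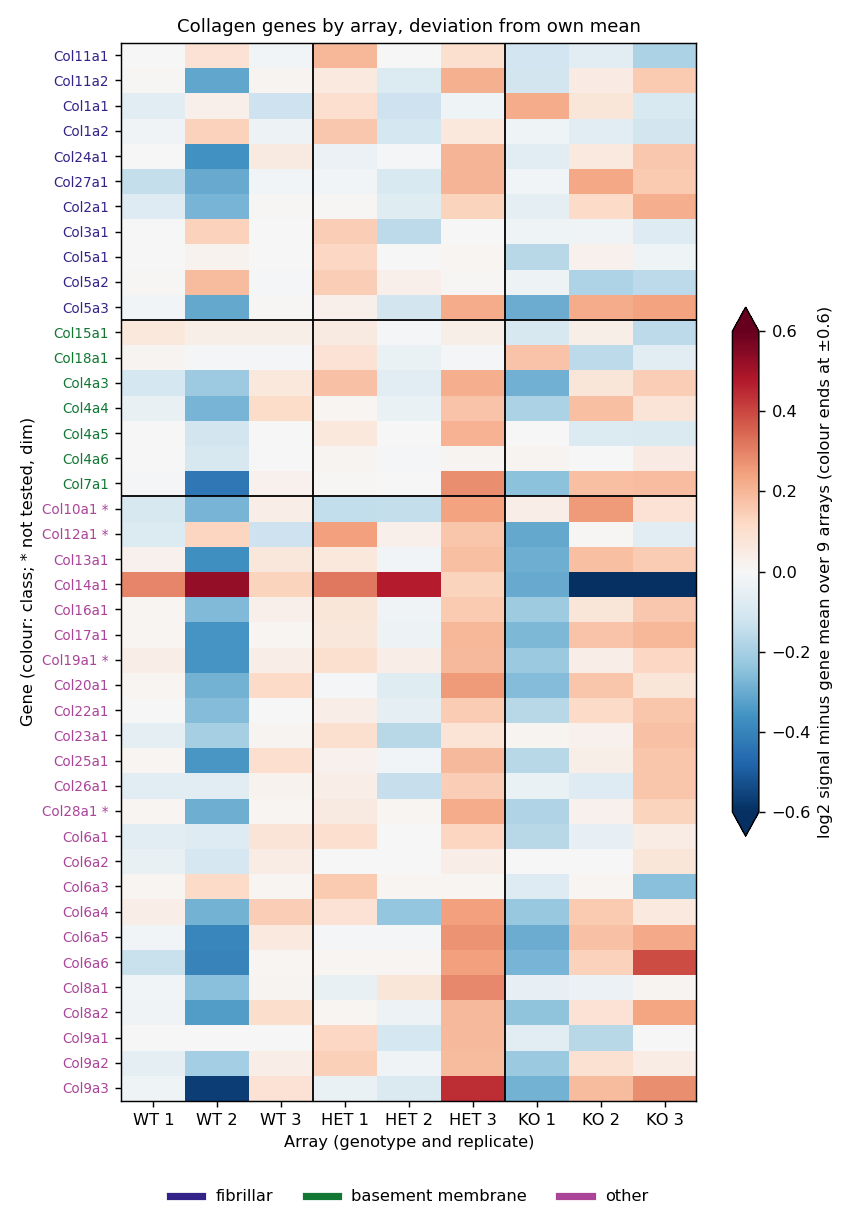
Deviation of each of the 42 collagens (rows, grouped by class) from its own mean over the 9 arrays (columns), in log2 signal, with colours ending at 0.6 either way. Most rows are below their mean on WT 2 and KO 1 and above it on HET 3, and the Col14a1 row is low on the KO arrays.

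The pattern was also described by signal level. A split chosen after the values were seen separated 21 collagens above the array median on all 9 arrays from the 17 others tested. A single array under its median was enough to place a gene among the 17, WT 2 and KO 1 included. Col13a1, Col22a1, Col6a5 and Col6a6 were placed there by WT 2 and KO 1 only. The size of the shifts on those arrays was therefore partly set by the split. The 17 dimmer genes had median deviations from their own mean of -0.28 on WT 2 and -0.23 on KO 1, and of 0.20 on HET 3, 0.15 on KO 3 and 0.12 on KO 2. For the 21 brighter genes the same arrays read -0.06, -0.07, 0.13, 0.04 and 0.01. By the same rule, with the same limit, 3086 of all genes tested were not above the array median on all 9 arrays. They shifted the same way, at -0.14 on WT 2, -0.09 on KO 1 and 0.07 on HET 3. The arrays with low collagens also had a low 25th percentile of all probe sets, at 5.42 for WT 2 and 5.48 for KO 1, against 5.53 to 5.65 on the other 7 arrays. Its part in the collagen differences was not tested. Without WT 2 and KO 1 the median of the 38 differences for KO against WT was 0.07, and Col14a1 stood at -1.00.

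**Figure D4:**
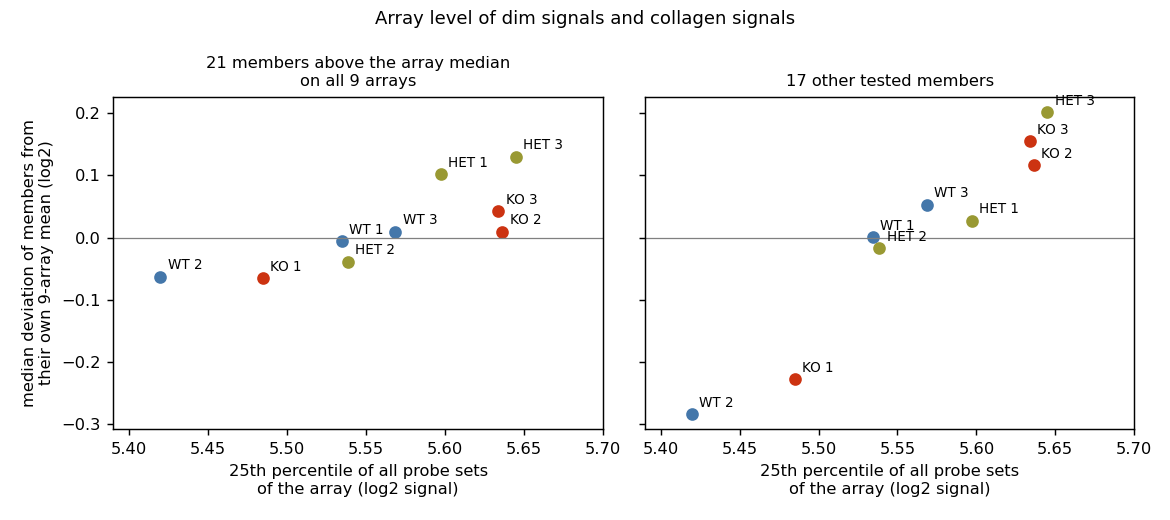
Median deviation of collagens from their own 9-array mean (vertical axis, log2) against the 25th percentile over the probe sets on an array (horizontal axis, log2 signal), for the 21 brighter collagens (left) and the 17 dimmer ones (right); each point is an array. WT 2 and KO 1 lie lowest on both axes in the right panel, at -0.28 and -0.23. The genes were split by their values on these same arrays, which partly sets those positions.

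Chains that share a molecule, or a place on a chromosome, were set side by side. Collagens that are direct neighbours among protein-coding genes were Col3a1 with Col5a2, Col4a4 with Col4a3, Col6a2 with Col6a1, Col6a6 with Col6a5 and Col6a5 with Col6a4, Col4a6 with Col4a5, and Col9a1 with the dim Col19a1. None of those tested passed in KO against WT, where the values were -0.09 and -0.19 for Col3a1 and Col5a2, 0.09 and 0.06 for Col4a4 and Col4a3, and 0.05 and -0.04 for Col6a2 and Col6a1. The collagens were spread over 14 chromosomes.

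Before export a chain is hydroxylated, folded and loaded into vesicles. Of 22 tested genes of this machinery 12 fell in KO against WT, 0 rose and 10 did not pass (54.5% called, against 23.5% of all genes), with a median of -0.36. Plod1 and Plod3 encode enzymes that hydroxylate lysines of the chain and fell by 0.78 ± 0.10 and 0.64 ± 0.08 (log2, SE, limma adjusted p = 0.00196 and 0.00186). Plod1 read 10.37, 10.42 and 10.55 on WT arrays, 10.49, 10.33 and 10.09 on HET arrays and 9.56, 9.73 and 9.70 on KO arrays, with KO below every other array. Fkbp14, a folding isomerase, fell by 0.61 (adjusted p = 0.00223) and Sec23a, a coat protein of the vesicles that leave the endoplasmic reticulum, by 0.47 (adjusted p = 0.00256).

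The remaining falls, named after their values were seen, were in the prolyl hydroxylases P4ha1 (-0.41), P4ha2 (-0.80) and P3h1 (-0.38), the sugar transferase Colgalt1 (-0.30), the collagen chaperone Serpinh1 (-0.33), the cargo receptors Mia2 (-0.54) and Mia3 (-0.34), and the coat protein Sec24d (-0.43). Calls were lost for Serpinh1 without any 1 array other than WT 2 or KO 2 (adjusted p from 0.0544 to 0.109), for P4ha1 without WT 1, KO 2 or KO 3 (0.055 to 0.0583), for Colgalt1 without any WT array (0.0583 to 0.0773) and for Mia3 without WT 2 (0.0544). P4ha2, the largest of these falls, read 8.91, 8.46 and 9.30 on WT arrays, 8.42, 8.47 and 8.18 on HET arrays and 7.96, 8.12 and 8.19 on KO arrays. WT 1 and WT 3, where parietal endoderm genes were high, were also its highest arrays, and the part of that in its difference was not tested.

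Against HET, with a parietal endoderm mean of 9.47 to 9.56 on HET and 9.48 to 9.74 on KO arrays, 6 of the 22 fell and 0 rose (27.3%, against 21.8% of all genes), all 6 among the 12. These were Plod1 (-0.64), Plod3 (-0.44), Fkbp14 (-0.31), Mia2 (-0.53), Sec23a (-0.47) and Sec24d (-0.33). Single arrays ended the calls of Fkbp14 (0.0615 to 0.106 without any of HET 1, HET 2, KO 2 and KO 3), Mia2 (without HET 1 or HET 2, 0.0514 and 0.0518) and Sec24d (without HET 1, 0.0525). P4ha2 stood at -0.27 (adjusted p = 0.334) and Serpinh1 at -0.09. HET against WT had 0 of the 22 past the test.

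**Figure D5:**
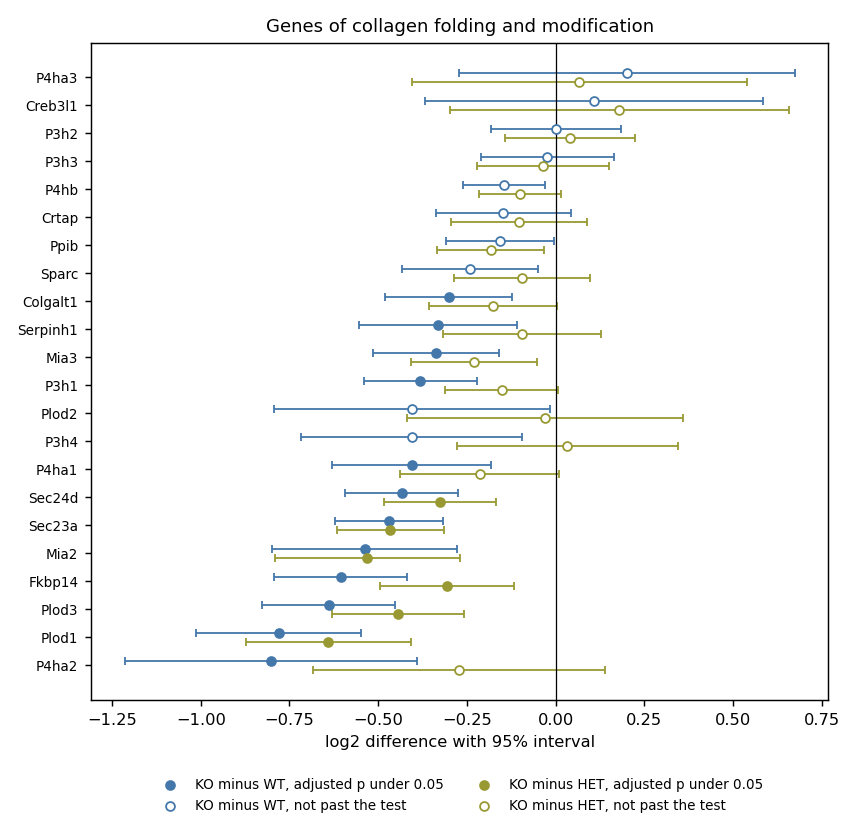
Log2 difference (horizontal axis) with its 95% interval for the 22 tested genes of collagen folding and modification, KO minus WT (upper marks of each row) and KO minus HET (lower marks); filled points have an adjusted p under 0.05. The 12 filled points of KO minus WT run from -0.80 for P4ha2 to -0.30 for Colgalt1, and 6 genes are filled in both.

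Genes whose products process procollagen or crosslink collagen showed no call in KO against WT. By limma 0 of 10 passed, against 23.5% of all genes, with a median of 0.03. Lox, which crosslinks fibrils, read 8.22, 8.85 and 8.22 on WT arrays, 8.69, 8.64 and 8.05 on HET arrays and 8.08, 7.78 and 7.38 on KO arrays. KO lay below WT without overlap but overlapped with HET, and the difference of -0.68 ± 0.24 (SE) did not pass (adjusted p = 0.0715). Loxl3 (-0.13), the procollagen protease Tll1 (-0.15) and Adamts3 (0.30) did not pass either. Without KO 1, 2 genes of this list were called, and without KO 2, 1. Loxl3 fell against HET (-0.21, adjusted p = 0.0292), a call lost without WT 1, any HET array or KO 2 (0.0538 to 0.103).

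Among 11 genes whose products bind or accompany fibrils, 2 rose, 0 fell and 9 did not pass (18.2% called, below the 23.5% of all genes). Fbn2, a microfibril protein of embryonic tissue, rose by 0.65 ± 0.14 (log2, SE, limma adjusted p = 0.0121), from 8.89, 9.11 and 8.92 in WT to 9.48, 9.58 and 9.80 in KO, with no overlap. The proteoglycan gene Vcan rose by 0.49 (0.0203). Leaving out WT 1, KO 2 or KO 3 ended that call (0.0602 to 0.0782) and left 1 gene of the list called, while 4 genes were called without KO 1. Thbs2 stood at -0.32 and the collagen-binding Dcn at -0.13. Fbn2 and Vcan also rose against HET (0.65 and 0.52, adjusted p = 0.0121 and 0.0176), the latter not without HET 1, KO 2 or KO 3 (0.0517 to 0.0549).

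Of 13 partners of collagen in the basement membrane 2 rose, 1 fell and 10 did not pass (23.1%, close to the 23.5% of all genes). Hspg2, the perlecan gene, rose by 0.43 (limma adjusted p = 0.0154) and the laminin gene Lama5 by 0.38 (0.049), and Nid2, which bridges laminin and collagen IV, fell by 0.34 (0.0192). Hspg2 lost its call without WT 2 (0.0537), Nid2 without WT 1, WT 2, KO 2 or KO 3 (0.0536 to 0.0681) and Lama5 without any 1 array other than HET 3 or KO 3 (0.0549 to 0.128). The number called was 1 without WT 1 or KO 2. The balance of directions also moved, to 0 higher and 4 lower without WT 2, 0 and 6 without WT 2 and KO 1 together, 1 and 5 with centred arrays and 3 and 7 with array weights. Lama1 stood at -1.24 (adjusted p = 0.0578), with 11.00 and 11.59 on WT 1 and WT 3 and 9.22 to 9.66 on the other arrays, and is itself among the 9 parietal endoderm genes. Against HET, Hspg2 rose (0.49, adjusted p = 0.00956) and Nid2 fell (-0.34, 0.0209), the latter not without HET 1, HET 2, KO 2 or KO 3 (0.0565 to 0.0786).

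Of 9 collagen receptors 2 fell, 1 rose and 6 did not pass in KO against WT (33.3% called, against 23.5% of all genes). Both falls were in integrin alpha chains that bind collagen, Itga2 (-0.48 ± 0.08, SE, limma adjusted p = 0.00486) and Itga1 (-0.43, 0.0278). Itga2 read 7.71, 7.70 and 7.54 on WT arrays, 7.84, 7.60 and 7.73 on HET arrays and 7.06, 7.20 and 7.23 on KO arrays, and KO lay below every other array. It fell against HET as well (-0.56, adjusted p = 0.00272), as did Itga1 (-0.40, 0.0378), whose call was lost without WT 1, HET 1, HET 2, KO 2 or KO 3 (0.0591 to 0.128). For KO against WT the endocytic collagen receptor gene Mrc2 rose by 0.20 (0.0432), and Itgb1, the shared beta chain, stood at -0.21 (0.0567). The collagen III receptor gene Adgrg1 rose against HET by 0.24 (0.037), lost without any 1 array other than WT 2 or HET 3 (0.0534 to 0.114). For KO against WT, Itga1 lost its call without WT 1, WT 2, KO 2 or KO 3 (0.0609 to 0.0928) and Mrc2 without any 1 array other than KO 1 (0.0526 to 0.159), and the number called was 1 without WT 1, WT 2 or KO 2.

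Of 8 genes of collagen breakdown 1 rose, 0 fell and 7 did not pass (12.5% called, below the 23.5% of all genes). The gene that rose was Mmp9, which encodes a gelatinase (0.42, limma adjusted p = 0.0221). That call was lost without WT 1, WT 2 or KO 2 (0.0588 to 0.0766), and 2 genes were called without KO 1. Against HET Mmp9 rose by 0.37 (0.0369), lost without WT 1, WT 3, HET 1, HET 3, KO 1 or KO 2 (0.05 to 0.115). In KO against WT Mmp2, Mmp16 and Reck stood at 0.17, 0.20 and -0.15.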

How the data were processed

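The values are log2 signals per probe set that the authors deposited, made by RMA (Expression Console 1.2.1.20 by Affymetrix is the software named in the submitters' processing notes), as a table of 28350 probe sets on 9 arrays. No source used here names the build behind the annotation. Gene symbols came from the platform annotation, and 21780 probe sets had 1 symbol, 1618 several and 4952 none; 0 symbols changed on update to RefSeq, which held all 42 collagens. Of a gene's probe sets the one with the highest mean was used. Genes above the 40th percentile of their array on at least 3 of 9 arrays were tested (13207). All 9 arrays entered 1 linear model in limma 3.58.1 (R 4.3.3) with genotype as the factor and default empirical Bayes moderation, and p-values were adjusted by Benjamini-Hochberg over all genes tested, with a threshold of 0.05. The script was tested on simulated data.

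Members, classes, lists and alternatives were chosen with earlier results of these data known. Values on every array were given for collagens that passed in any comparison, for Col1a1, Col1a2 and Col3a1, and for the 2 members of each class that had the lowest unadjusted p in KO against WT; Col18a1 and the pathway genes shown by array were added after their values were seen. From each pathway list up to 4 genes with the smallest unadjusted p were named, and others are said to have been named later or, where they did not pass, are given as values. Rnh1, Col4a1 and Col4a2 were named as well. Counts are of genes, and 11 listed symbols had no probe set of their own. No set test was run.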

Additional observations from a re-analysis of the deposited data

How the results depend on the processing

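The alternatives were the filter, the probe set rule, 3 scalings between arrays, the prior, array weights (whose fit stopped before full convergence), only the genotypes compared, thresholds, the removal of WT 2 and KO 1, and of each array in turn. The Col14a1 calls held under all of them, and 0 called values changed sign. Calls of collagens for KO against WT numbered 1, and 2 with quantile normalization, 5 with array weights and 2 at an adjusted p under 0.1, with 1 to 3 when single arrays were left out. For HET against WT the number was 0 under each. For KO against HET it was 2, and 1 with no filter, with arrays centred on their medians, with the trended and robust prior, with only the 2 genotypes compared, with a 1.5-fold minimum and 1 to 2 when single arrays were left out, but 3 with quantile normalization and 3 with array weights. The fibrillar median of 0.12 moved to 0.028 with the filter at the array median, to 0.053 with array weights and to between 0.020 and 0.12 without single arrays, where the basement membrane median ran from -0.0083 to 0.070 and the other from -0.017 to 0.18. Without a single array the called genes of the lists numbered 9 to 12 (folding), 0 to 2 (processing), 1 to 4 (fibril partners), 1 to 4 (basement membrane partners), 1 to 3 (receptors) and 0 to 2 (breakdown). A 1.5-fold minimum gave 4 (folding), 1 (fibril partners) and 0 for basement membrane partners, receptors and breakdown. Array weights gave 3 (processing), 4 (fibril partners), 10 (basement membrane partners), 5 (receptors) and 2 (breakdown). At an adjusted p under 0.1 there were 1 (processing), 7 (basement membrane partners) and 5 (receptors). Centred arrays gave 6 (basement membrane partners) and 0 (breakdown), the filter at the array median 0 (breakdown), the removal of WT 2 and KO 1 together 6 (basement membrane partners), and quantile normalization or cyclic loess 5 (receptors). Over all genes 3101 were called for KO against WT, and 5753 with array weights, 608 with a 1.5-fold minimum, 1672 without WT 1 and 1769 without WT 2. For KO against HET 2875 were called, and 567 with a 1.5-fold minimum, 1513 without HET 1 and 1567 without HET 2. For KO against WT 64.8% of the 3101 were lower, against 81.4% with centred arrays. The cause of these changes was not tested.

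Deviations from the genotype mean correlated at r over 0.1 in 5 of 9 pairs of arrays with the same replicate number (r from -0.26 to 0.42). Among pairs with different numbers this held for 6 of 18 (r from -0.59 to 0.41). Correlations among so few arrays cannot decide whether the numbers pair the samples. With the replicate number as a block the calls were 1 for KO against WT, 1 for KO against HET and 1 for procollagen processing. Dim signals limit what can be read from the 4 untested collagens and from the 9 tested ones under the array median on all 9 arrays, Col4a3, Col4a4, Col4a6, Col6a4, Col8a1, Col8a2, Col17a1, Col24a1 and Col25a1. Col6a4 was above the 40th percentile on only 5 arrays.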

Other observations

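Col6a5 and Col6a6 were each covered by 2 probe sets. Those not used lay between 5.16 and 5.54 and between 5.41 and 5.92, under the dim filter, and their KO minus WT differences were 0.15 and 0.12, against 0.15 and 0.26 for the ones used.

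A value identical to 6 decimals on 2 or more arrays was held by 18 of the 38 tested collagens (47.4%) and by 36.3% of all genes tested, and on 3 or more arrays by 9 collagens (23.7% against 13.3%). Col9a1 read 7.53 on all WT arrays with an SD of 0.00, and its HET and KO arrays ranged from 7.36 to 7.72.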
